A study of Mus musculus with 47 samples.

Results

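The comparison described here is that of transgenic (TG) with wildtype (WT) mice on a high-fat diet (HFD) in brainstem, which took 12 of the 47 libraries of the study, 6 of TG_HFD and 6 of WT_HFD. Libraries were assigned to the groups by the tissue, genotype and diet in their labels, and every gene that averaged 50 counts or more across the 23 brainstem libraries was tested, 13340 of the 33139 genes counted. The study crossed genotype with diet (standard diet, SD, or HFD) and sequenced poly(A) RNA from brainstem and hippocampus with single-end reads of 75 bases. All mice were C57BL/6 males kept on their diet from shortly after weaning until 12 months of age. TG mice were homozygous for a transgene expressed from a Thy1 promoter cassette that is active in neurons, so the glia and vessels of these mice should carry no transgene message. WT mice came from the outcross that founded the TG colony and were bred as a parallel colony, so genotype and colony cannot be told apart in any value below. HFD was common to all 12 mice, and the tissue dissected was the medulla. In the study each library of a tissue came from a separate mouse.

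Parkinson disease and related disorders are marked by protein aggregates in neurons, by impaired mitochondria and by glial activation, and brainstem nuclei are among the regions they affect. The medulla holds motor, autonomic and sensory nuclei as well as long myelinated tracts. A diet rich in fat alters insulin signalling and lipid supply, and its effect on the brain of these mice was the question behind the design.

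Total counts ranged from 10606953 to 15078812 in TG_HFD and from 11859757 to 14371188 in WT_HFD. Of 22 genes of the hindbrain list (*Hox* genes, glycinergic genes and others), 17 had a mean of at least 1 CPM (the count scaled to a common library total) in the 12 libraries, and the glycine transporter gene *Slc6a5* lay between 251 and 469.7 CPM. Of 12 genes of the forebrain list, 5 had a mean of at least 1 CPM, the highest being *Prox1* with 26.8 to 42.9 CPM, while *Emx1* stayed at or below 0.251 CPM. Choroid plexus markers varied from library to library without following genotype (mean log2 CPM of the list 2.91 ± 1.45 in WT_HFD and 2.41 ± 1.71 in TG_HFD, SD, n = 6 each, two-sided exact permutation p = 0.576). TG_HFD replicate 3 had the lowest myelin list level of its group and a GC slope of −0.338, the lowest of the 12 libraries. The GC slope is the trend of a library's log2 deviations from the mean library per 10% of GC content.

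*Thy1*, whose promoter drives the cassette, separated the groups completely. *Thy1* (ENSMUSG00000032011), which encodes a neuronal surface glycoprotein, had 6711, 6737 and 7289 normalized read counts in the lowest, median and highest WT_HFD library and 81300, 92100 and 115800 in TG_HFD. Every library fell with the genotype in its label. The log2 fold change was 3.76 (SE 0.0591), with a Benjamini-Hochberg adjusted p = 9.37e-28 by edgeR's quasi-likelihood test. Reads of the cassette and of endogenous *Thy1* were not separated here. The plot of normalized read counts by library shows this gene with the other called genes described here.

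**Figure D1:**
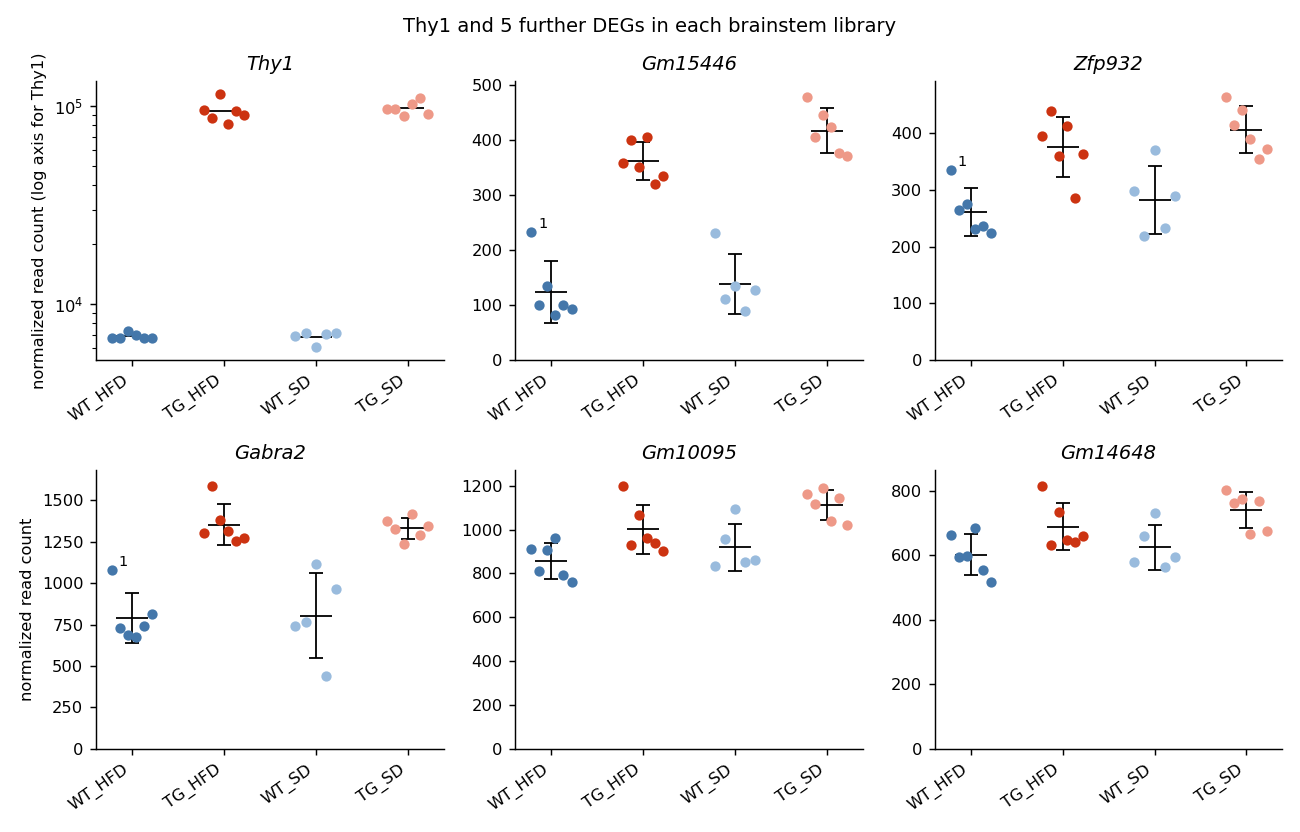
Normalized read counts of *Thy1* and 5 further DEGs in each brainstem library of WT_HFD, TG_HFD, WT_SD and TG_SD. Points are libraries, horizontal bars are group means and error bars are SD (no error bars on the log axis of *Thy1*); WT_HFD replicate 1, marked by its number, lies at 234 for *Gm15446* and at 1080 for *Gabra2*, between the other WT_HFD libraries and all TG_HFD libraries.

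Few genes passed the test. A gene was called differentially expressed (DEG) where its adjusted p did not exceed 0.05 and its log2 fold change was 0.3 or more in size. With edgeR's quasi-likelihood test and 4 surrogate variables (covariates estimated from the counts themselves, which absorb variation shared by many genes), 7 genes were DEGs, 0.0525% of those tested, and all 7 were higher in TG_HFD. In the same test, 0 genes were called lower, while 746 genes (5.59%) had a nominal p, that is one before adjustment, of 0.05 or less, 297 of them lower (2.23%) and 449 higher (3.37%). DESeq2 with the same surrogate variables also called 7 genes, all higher, and DESeq2 without surrogate variables called 87 (0.652%), 23 of them higher (0.172%) and 64 lower (0.48%). Without surrogate variables edgeR called 5 genes (0.0375%), all higher, and 2625 (19.7%) had a nominal p of 0.05 or less. Without the fold threshold 12 genes passed (0.09%). Of the 7 DEGs, 6 are described here, *Thy1*, the zinc finger genes *Gm15446* and *Zfp932*, the GABA-A receptor gene *Gabra2*, and the processed pseudogenes *Gm10095* and *Gm14648*.

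*Gm15446* (ENSMUSG00000090015), a predicted protein-coding zinc finger gene on chromosome 5, had the largest change of these after *Thy1*. Its normalized read counts were 82.6, 99.9 and 234 in the lowest, median and highest WT_HFD library and 320.8, 355.2 and 406.3 in TG_HFD. All TG_HFD libraries lay above all WT_HFD libraries, and WT_HFD replicate 1 alone lay between the rest of its group and TG_HFD. It rose by 1.77 in log2 terms (edgeR SE 0.213, adjusted p = 2.04e-05). Without surrogate variables it was 1.55 (adjusted p = 7.44e-05), and without WT_HFD replicate 1 it was 1.88 (adjusted p = 1.17e-07).

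*Zfp932* (ENSMUSG00000066613), another zinc finger gene of chromosome 5, is the next tested gene after *Gm15446* along the chromosome, with 0 tested genes between them. It had 223.5, 250.3 and 335.5 normalized read counts in WT_HFD and 285.7, 379.4 and 439.2 in TG_HFD. The groups overlap, because WT_HFD replicate 1 (335.5) exceeds TG_HFD replicate 7 (285.7). The log2 fold change was 0.57 (SE 0.101, edgeR adjusted p = 0.0116), and 0.53 with an adjusted p of 0.106 without surrogate variables. Leaving out TG_HFD replicate 1 or WT_HFD replicate 8 also ended the call.

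Both genes share sequence. Of the windows of 75 bases, the read length, in *Gm15446* transcripts, 23% occur in another gene, and of those in *Zfp932* 26.4%, with 833 windows common to the pair. How the deposited counts treated reads that match more than 1 gene is not given in the sources used here, so the values of the pair are uncertain to that extent. The share that such reads had in either change was not tested. One such run, shown because a read of it cannot be placed in either gene, is bases 748 to 822 of the *Zfp932* coding sequence (GENCODE M21 transcripts, counted from the start codon).
Zfp932 and Gm15446: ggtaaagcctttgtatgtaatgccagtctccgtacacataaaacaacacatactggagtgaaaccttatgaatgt

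*Gabra2* (ENSMUSG00000000560), also on chromosome 5 but 155 tested genes away from *Gm15446*, encodes the alpha 2 subunit of the GABA-A receptor, the chloride channel of fast inhibition. Its normalized read counts were 676.8, 736.6 and 1080 in WT_HFD and 1255, 1310 and 1589 in TG_HFD. Every TG_HFD library exceeded every WT_HFD library, and WT_HFD replicate 1 was again the highest of its group. The log2 fold change was 0.74 (SE 0.144, edgeR adjusted p = 0.0251), 0.78 without surrogate variables (adjusted p = 0.0215) and 0.76 without WT_HFD replicate 1 (adjusted p = 0.0148). The call was lost without TG_HFD replicate 1, 7 or 8 and without WT_HFD replicate 2 or 8, with log2 fold changes between 0.70 and 0.81 over the 12 fits that each left out a library. *Gabra2* is also 1 of 6 tested genes on a list of genes known to differ between substrains of C57BL/6. *Ide*, the insulin-degrading enzyme, had −0.15 (SE 0.0531, edgeR adjusted p = 0.811), and *Cyfip2*, *Wdfy1* and *Entpd4*, named after their values were seen, had −0.04, 0.04 and −0.06. *Nnt*, the best known gene of that list, had too few reads to be tested.

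Other tested genes beside these 3 on chromosome 5 were not called. Around *Gm15446*, *Fgfrl1* (0.01), *Idua* (−0.02), *Plcxd1* (−0.16) and *Zfp605* (−0.02) had edgeR adjusted p values of 0.971 or more. Around *Gabra2*, the receptor genes *Gabrg1*, *Gabra4* and *Gabrb1* had log2 fold changes of 0.02, 0.20 and 0.03, and *Gm43028*, named after its value was seen, had 0.30 (SE 0.085, edgeR adjusted p = 0.444).

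The remaining DEGs were copies of 1 ribosomal protein gene. *Gm10095* had 758.8, 859 and 962.4 normalized read counts in WT_HFD and 904, 950.9 and 1201 in TG_HFD, a log2 difference of 0.32 (SE 0.0532, edgeR adjusted p = 0.00556). *Gm14648* had 517.5, 595.5 and 684.1 in WT_HFD and 630.7, 652.6 and 815.4 in TG_HFD, a log2 difference of 0.30 (SE 0.0614, edgeR adjusted p = 0.0382). The groups overlap in both. Both are processed pseudogenes of *Rpl21*, which encodes a protein of the large ribosomal subunit. With *Gm13370*, *Gm10163*, *Rpl21-ps15* and *Gm10240*, 6 such pseudogenes were among the 12 genes that passed without the fold threshold, with log2 fold changes from 0.29 to 0.32.

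These 6 are not separate observations. Between 72.1% and 100% of their windows of 75 bases occur in other genes, 29 of them tested here, and their counts correlated with one another across the 12 libraries with r of at least 0.956, a description over libraries that share these reads. The parent gene *Rpl21* had 2932, 3263 and 3558 normalized read counts in WT_HFD and 3092, 3331 and 3906 in TG_HFD, that is 0.14 on the log2 scale (SE 0.0452, with an edgeR adjusted p of 0.64). A run of 75 bases common to *Rpl21* and all 6 pseudogenes, bases 128 to 202 of the 480 of its coding sequence, shows why reads cannot be told apart. It occurs in 21 genes other than *Rpl21*.
Rpl21 and its pseudogenes: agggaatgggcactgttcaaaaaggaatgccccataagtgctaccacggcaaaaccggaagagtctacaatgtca
Without surrogate variables the pseudogenes had log2 fold changes from 0.19 to 0.22 with edgeR adjusted p values from 0.149 to 0.193, so none was called. The call of *Gm10095* was also lost without TG_HFD replicate 1 or WT_HFD replicate 8, and that of *Gm14648* without replicate 1, 3 or 8 of TG_HFD or replicate 1, 3, 7 or 8 of WT_HFD.

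Of the 12 genes that passed at any fold, *Nefh* alone was lower in TG_HFD. It encodes the heavy neurofilament subunit, abundant in the thick axons of motor and sensory tracts. Its normalized read counts were 6827, 8607 and 9619 in WT_HFD and 6930, 7617 and 8757 in TG_HFD, which overlap widely. It fell by 0.26 in log2 terms (edgeR SE 0.0487, adjusted p = 0.023), below the fold threshold, and had −0.13 (adjusted p = 0.458) without surrogate variables. With a correction of the counts for each gene's GC content, and no surrogate variables, *Nefh* had 0.04 (adjusted p = 0.884). It no longer passed without TG_HFD replicate 4 or 7 or WT_HFD replicate 2, 7 or 8, with −0.19 (adjusted p = 0.67) in the last of these fits. Without TG_HFD replicate 1 it was −0.34 (edgeR adjusted p = 0.00227), past the fold threshold too, so *Nefh* was a DEG in that fit. The medium subunit gene *Nefm* had −0.17 (SE 0.057, edgeR adjusted p = 0.693). Over the 20 tested genes of the neurofilament and microtubule list the median was 0.0013, against 0.0055 over all tested genes. At a nominal p of 0.05 or less 2 members were lower and 0 higher, where 2.23% of all tested genes were lower.

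A count free of the model was also taken. For 91 genes (0.682%), the normalized read counts of TG_HFD and WT_HFD did not overlap, 49 higher in TG_HFD (0.367%) and 42 lower (0.315%). Leaving out *Thy1* and the transgene, 47 higher and 42 lower genes remained. *Lpl* (ENSMUSG00000015568), lipoprotein lipase, which releases fatty acids from triglycerides and is expressed by microglia and some neurons, had 85.7, 117.1 and 124.9 normalized read counts in WT_HFD and 143.4, 167.4 and 286.1 in TG_HFD. TG_HFD replicate 8 was far above the other libraries, but all 6 TG_HFD libraries exceeded all of WT_HFD. The fitted log2 difference was 0.62 (SE 0.155), and edgeR's adjusted p was 0.253. Without surrogate variables it was 0.72 and passed (adjusted p = 0.0412), and with 4 surrogate variables but without TG_HFD replicate 8 it was 0.49 (adjusted p = 0.312). It was called without TG_HFD replicate 7, at 0.79 (adjusted p = 0.0199).

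On the lower side, *Auh* (ENSMUSG00000021460), an enzyme of leucine breakdown that also binds RNA, had 621.3, 753.4 and 831.6 normalized read counts in WT_HFD and 543.3, 578.7 and 617.1 in TG_HFD. All TG_HFD libraries lay below all WT_HFD libraries. Its fitted log2 fold change was −0.30 (SE 0.0724, edgeR adjusted p = 0.221), and correcting for GC content instead of using surrogate variables gave −0.37 (adjusted p = 0.0377). *Eme2*, a subunit of a DNA repair nuclease, had −0.45 (SE 0.154). *Arrdc1*, an arrestin-like adaptor, had −0.41 (SE 0.162), and *Cntn3*, a cell adhesion molecule of neurons, −0.40 (SE 0.117). The citrate transporter gene *Slc13a5* had −0.34, *Cryl1*, an enzyme of the uronate cycle, −0.32, and *Hebp2*, a heme-binding protein, −0.31. In edgeR's test with 4 surrogate variables none of these was called, with adjusted p values from 0.5 (*Cntn3*) to 0.865 (*Slc13a5*). DESeq2 without surrogate variables called *Auh* (adjusted p = 0.00407), *Cntn3* (0.0257) and *Hebp2* (0.0287). By edgeR, *Auh* and *Cntn3* were called with 2 surrogate variables, and *Auh* also with the GC correction instead of surrogate variables (adjusted p = 0.0377). With a block for replicate number and no surrogate variables, edgeR called *Hebp2*. On the higher side, *Tox* and *Zfp711*, both regulators of transcription, had 0.32 and 0.26, and *Kcnj12*, an inward rectifier potassium channel, 0.27.

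GC content differed between these groups of genes. Genes without overlap had a median GC content of 45.9% where they were higher in TG_HFD (47 genes) and of 56.1% where they were lower (42 genes), against 50.3% over all tested genes. Their median log2 fold changes were 0.133 and −0.186 with surrogate variables and 0.218 and −0.332 without. The GC slope was 0.119 ± 0.0672 in WT_HFD and −0.0413 ± 0.166 in TG_HFD (SD, n = 6 each), a difference of −0.16 with a two-sided exact permutation p of 0.0303 and an adjusted p of 0.141 over 14 library measures. Without TG_HFD replicate 3 the difference was −0.101 (exact p = 0.0649). The part of the GC slope in these genes was not tested gene by gene.

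The mice on SD gave libraries that share no sample with this comparison, although both comparisons were taken from 1 model. In the study, diet was randomized within litters, so mice on SD may be littermates of mice on HFD. Between 6 TG_SD and 5 WT_SD libraries, edgeR called 19 DEGs (0.142%). Of the 7 genes called on HFD, 5 were among them, including *Thy1*, *Gm15446*, *Gabra2* and *Zfp932*. All 7 had the same sign. On SD the log2 fold change of *Gm15446* was 1.58 and that of *Gabra2* 0.70, against 1.77 and 0.74 on HFD, with nominal p values of 0.495 and 0.813 for the interaction with diet. Of the 89 genes without overlap on HFD, 55 had the same sign on SD (61.8%, against 56.5% of the 13338 tested genes other than *Thy1* and the transgene), 13 had a nominal p of 0.05 or less there and 4 were also without overlap in the same direction. On SD, 1400 of all 13340 tested genes (10.5%) had such a p, and 71 (0.532%) were without overlap in either direction. *Auh* was called on SD at −0.53 (edgeR adjusted p = 3.09e-06), while *Lpl* had 0.24 (adjusted p = 0.518). In hippocampus on HFD, where 30 of 13272 tested genes were called (0.226%), 3 of the 7 were among them, including *Thy1* and *Gm15446*, and *Gabra2* had 0.60 (SE 0.19, edgeR adjusted p = 0.18). Hippocampus and brainstem samples may come from the same mice, which the labels do not say.

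**Figure D2:**
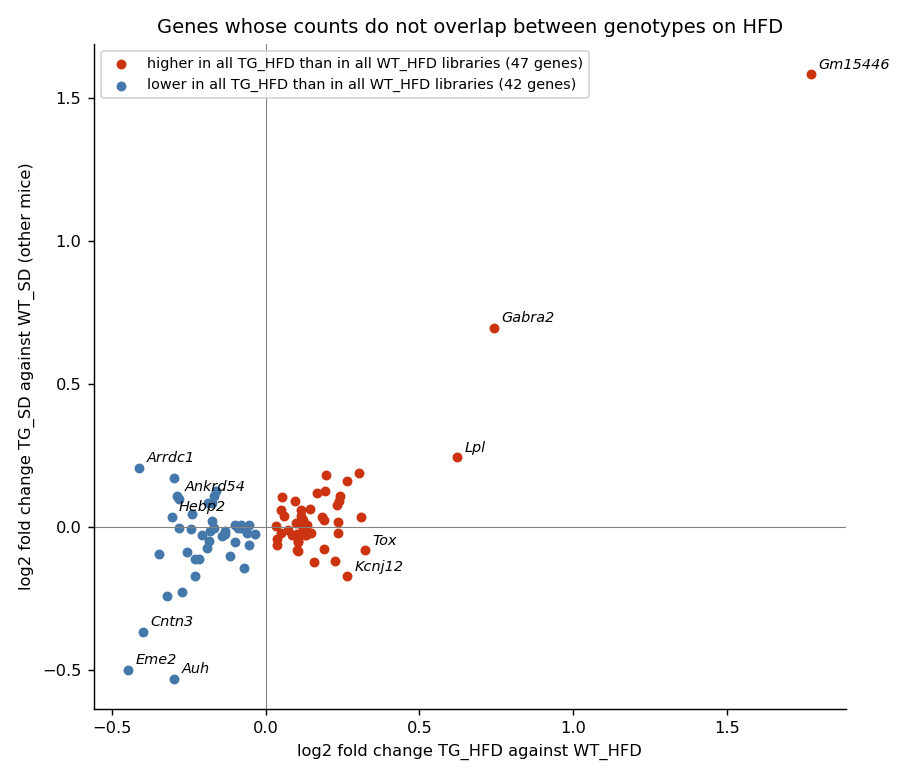
Log2 fold change of TG against WT on HFD (x axis) and on SD (y axis) for the 89 genes whose normalized read counts did not overlap between TG_HFD and WT_HFD, without *Thy1* and the transgene; each point is a gene and its colour gives the direction on HFD, which the choice of genes fixes. *Gm15446* and *Gabra2* lie far along both axes, while most genes lie near 0 on SD and 55 of the 89 have the same sign on both diets.

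Whether the genotype difference depended on diet was tested as an interaction in the same model, in which 1 gene passed (0.0075%) and 644 (4.83%) had a nominal p of 0.05 or less. This was *Zfp382*, a zinc finger repressor, with a log2 interaction of −1.36 (edgeR adjusted p = 0.0467, SE 0.236). On HFD its normalized read counts were 34.2, 45.2 and 81.6 in WT_HFD and 41.4, 45.2 and 84.3 in TG_HFD, with the same median in both groups. The fitted log2 fold change on HFD was −0.39 (SE 0.18, edgeR adjusted p = 0.884), and 0.05 without surrogate variables, where the interaction was not called. On SD it was 0.97 (adjusted p = 0.00256). No gene passed for the interaction when TG_HFD replicate 3, 4 or 7 or WT_HFD replicate 1, 2, 3, 7 or 8 was left out. None of the 7 DEGs on HFD had an interaction with a nominal p of 0.05 or less, the lowest being 0.15 for *Gm10095*.

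The nuclear genes of the respiratory chain gave different answers with and without surrogate variables. Complex I passes electrons from NADH into the chain, and its inhibition is toxic to dopamine neurons. Of its 36 tested nuclear subunit genes, 24 were lower in TG_HFD with surrogate variables, and the median log2 fold change was −0.02. In that fit 1 was higher and 2 were lower at a nominal p of 0.05 or less, where 3.37% of all tested genes were higher and 2.23% lower. Without surrogate variables, 33 were lower, the median was −0.19, and 21 were lower and 0 higher at that p, where 9.24% of all tested genes were lower and 10.4% higher. By edgeR none was called in either of these fits, and DESeq2 without surrogate variables called 2 lower. With 2 surrogate variables, both edgeR and DESeq2 called *Ndufs7*. *Ndufb3* (0.17, SE 0.0489), *Ndufs3* (−0.10, SE 0.0409) and *Ndufab1* (−0.16, SE 0.0631) were the 3 with the lowest p in the model with surrogate variables.

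By library, the mean level of the 36 genes relative to the WT_HFD mean ran from −0.203 to 0.217 in WT_HFD, with a median of 0.0227, and from −0.461 to −0.0607 in TG_HFD, with a median of −0.175. TG_HFD replicate 3 was the lowest. WT_HFD replicates 7 and 8 lay at the level of TG_HFD, and the other 4 WT_HFD libraries lay above all 6 TG_HFD libraries. Without surrogate variables the median log2 fold change of the 36 genes was −0.14 when TG_HFD replicate 3 was left out. Correcting for GC content instead gave −0.18. Surrogate variable 1 had a median of −0.226 in WT_HFD and 0.0267 in TG_HFD, and variable 3 of −0.202 and 0.189, so the covariates themselves differed between genotypes. Which of the fits is nearer to the amounts in the tissue was not tested.

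Complexes II to V gave a similar picture. Their 40 tested nuclear genes had a median of −0.01 with surrogate variables, with 0 at a nominal p of 0.05 or less. Without them the median was −0.14, with 17 lower and 0 higher at that p, where 9.24% of all tested genes were lower and 10.4% higher. *Uqcrq*, a subunit of complex III, had 362, 639.4 and 870.7 normalized read counts in WT_HFD and 212.3, 371.5 and 560.8 in TG_HFD. TG_HFD libraries tended to lie below WT_HFD libraries but the ranges overlap. Its log2 fold change was −0.07 with surrogate variables (edgeR adjusted p = 0.972) and −0.72 without (adjusted p = 0.115). *Ndufa2* of complex I had −0.10 and −0.44, and *Cox6a1* of complex IV −0.06 and −0.39, in the same order. By edgeR neither was called in these fits, while DESeq2 without surrogate variables called both (adjusted p = 0.0321 for *Ndufa2* and 0.0269 for *Cox6a1*) and 3 genes of complexes II to V in all, each lower. With 2 surrogate variables, edgeR called *Uqcr11* of complex III, and DESeq2 called *Uqcr11* and *Uqcrq*. The 13 messages encoded by the mitochondrial genome, which are counted from the same organelle, had a median of 0.08 in both fits, with 12 higher in TG_HFD with surrogate variables. Without surrogate variables 4 of the 13 were higher and 0 lower at a nominal p of 0.05 or less, where 10.4% of all tested genes were higher. DESeq2 without surrogate variables called 1 of the 13, higher. With the GC correction instead of surrogate variables the median of the 13 was −0.05, with 9 lower. With surrogate variables it was 0.02 without TG_HFD replicate 1 and 0.11 without TG_HFD replicate 7. All genes of the mitochondrial genome, the 13 messages and others, made up 9.9% to 11.6% of counts in WT_HFD and 9.99% to 11.8% in TG_HFD.

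Ribosomal protein genes changed sign between the fits. The 76 tested genes of cytosolic ribosomal proteins had a median of 0.05 with surrogate variables, with 73 higher in TG_HFD and 13 higher and 1 lower at a nominal p of 0.05 or less. Without surrogate variables the median was −0.11, with 64 lower, and 23 lower and 0 higher at that p. Of all tested genes, 3.37% were higher and 2.23% lower at that p with surrogate variables, and 10.4% higher and 9.24% lower without. *Rps23*, of the small subunit, is an example. It had 1993, 2394 and 2853 normalized read counts in WT_HFD and 2054, 2308 and 2751 in TG_HFD, and its log2 fold change was 0.16 (SE 0.0397, edgeR adjusted p = 0.253) with and −0.02 without surrogate variables. Mitochondrial ribosomal protein genes had medians of −0.00065 and −0.11 over 76 tested genes. The plot of GC slope and list levels shows the 12 libraries, and the plot of list medians shows both fits side by side.

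**Figure D3:**
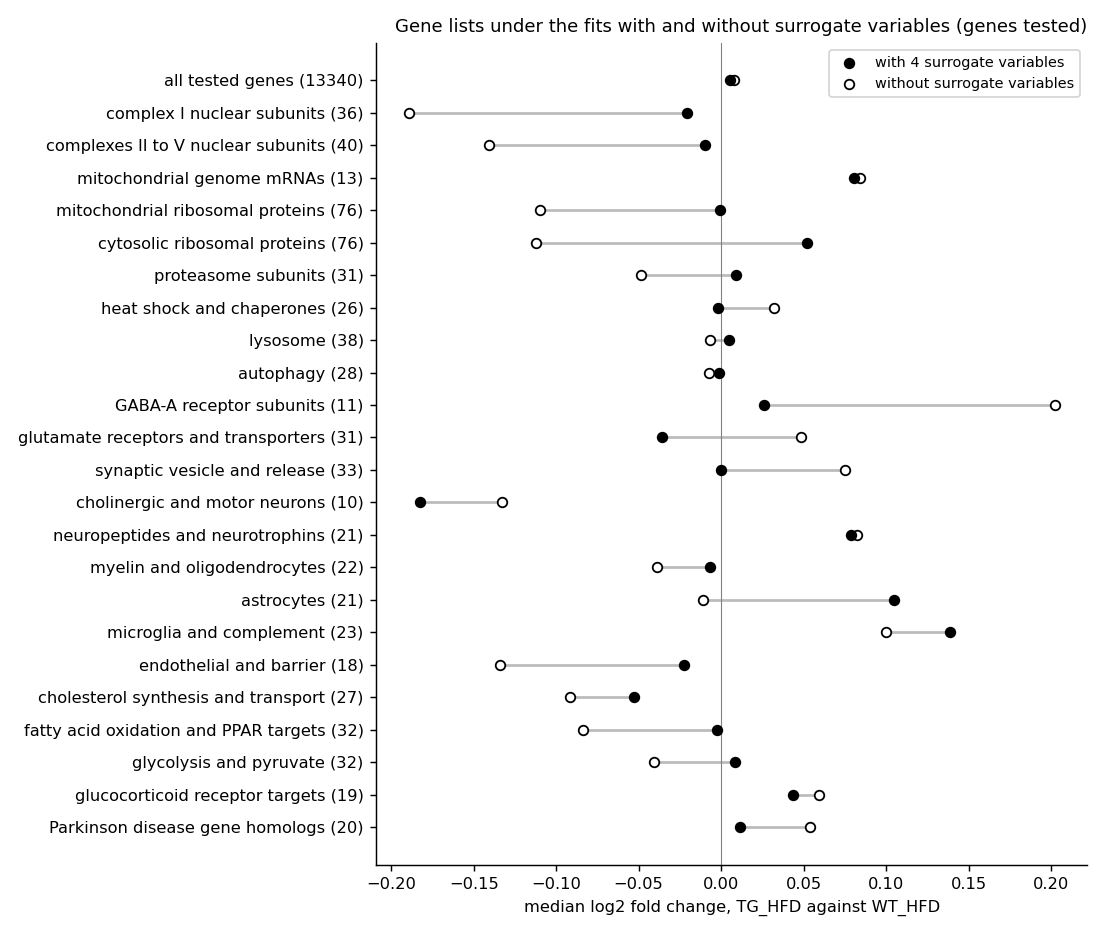
Median log2 fold change of TG_HFD against WT_HFD for all 13340 tested genes and for gene lists, with the number of tested genes in brackets; filled points are from the model with 4 surrogate variables and open points from the model without. The lists of complex I, complexes II to V and mitochondrial and cytosolic ribosomal proteins lie between −0.19 and −0.11 without surrogate variables and between −0.02 and 0.05 with them, while the median of all tested genes stays near 0.

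**Figure D4:**
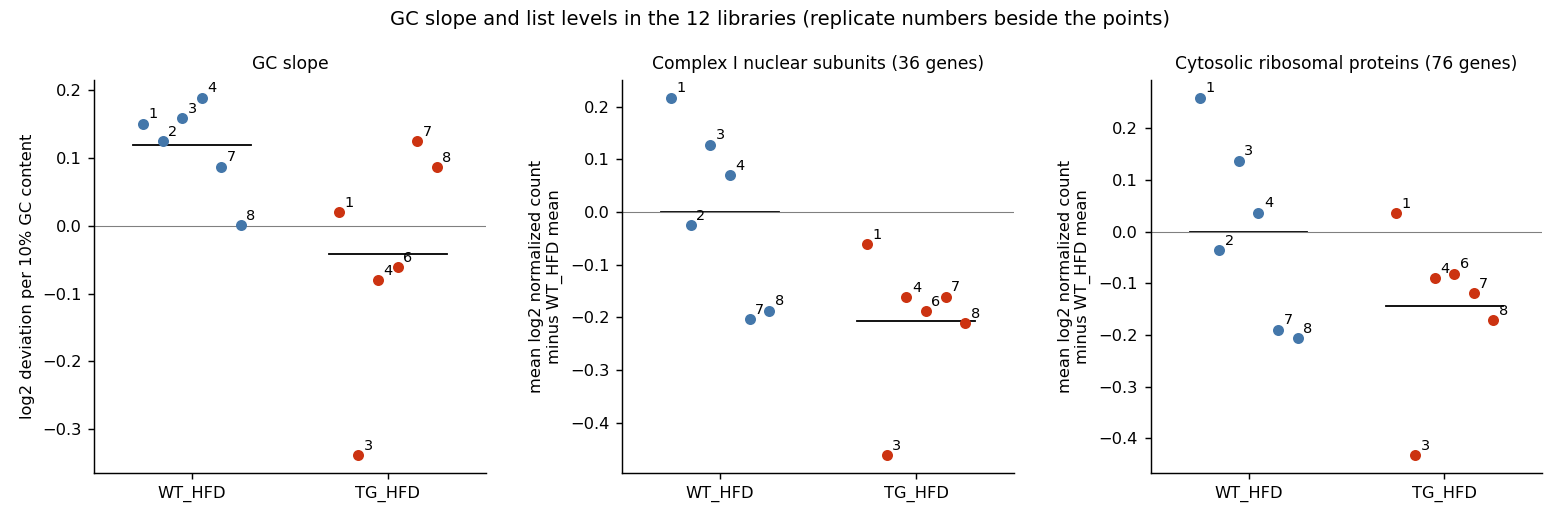
GC slope (left, log2 deviation per 10% GC content) and mean log2 normalized read count of complex I nuclear subunit genes (middle) and cytosolic ribosomal protein genes (right), relative to the WT_HFD mean, in the 6 WT_HFD and 6 TG_HFD libraries. Numbers are replicates and horizontal lines are group means; TG_HFD replicate 3 is the lowest in all 3 panels, and WT_HFD replicates 7 and 8 lie among the TG_HFD libraries for both lists.

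Some further genes that the study discusses were read the same way. *Uchl1*, a neuronal deubiquitinase, had 6024, 7336 and 7744 normalized read counts in WT_HFD and 4150, 5806 and 6334 in TG_HFD, with log2 fold changes of −0.08 with and −0.33 without surrogate variables. The cytokine gene *Mif* had −0.07 and −0.59, *Ppp1r14a*, an inhibitor of myosin phosphatase, −0.23 and −0.56, the co-chaperone gene *Stub1* 0.13 and −0.28, and the lysosomal ATPase gene *Atp13a2* 0.01 and −0.32. By edgeR none of these 5 was called in either of these fits. DESeq2 without surrogate variables called *Uchl1* (adjusted p = 0.0328) and *Ppp1r14a* (adjusted p = 0.0247) lower, and edgeR with 2 surrogate variables called *Mif* and *Ppp1r14a*. Over a list of 11 tested genes taken from the study's text, which is not complete and lacks *Cntn3*, the median was −0.07 with and −0.35 without surrogate variables. That list was chosen in the study on these samples, so it is not independent evidence of a direction. The 20 tested mouse homologs of Parkinson disease genes had medians of 0.01 and 0.05, and *Uchl1* was the only one at a nominal p of 0.05 or less with surrogate variables.

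Inhibitory receptors apart from *Gabra2* showed small values. Of 11 tested GABA-A receptor subunit genes, 8 were higher in TG_HFD, the median was 0.03, and *Gabra2* and *Gabra4* had a nominal p of 0.05 or less. Of all tested genes 5.59% had such a p. *Gabra4*, the alpha 4 subunit of extrasynaptic receptors, had 188.3, 235.5 and 268.2 normalized read counts in WT_HFD and 250.9, 261.5 and 320 in TG_HFD, which overlap. Its log2 fold change was 0.20 (SE 0.0813, edgeR adjusted p = 0.827). Without surrogate variables all 11 were higher, with a median of 0.20, and 7 were higher at a nominal p of 0.05 or less, where 10.4% of all tested genes were. Glutamate receptors and transporters had medians of −0.04 and 0.05 over 31 tested genes, and genes of synaptic vesicles and release 0.00012 and 0.08 over 33.

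Most genes of cholinergic and motor neurons had values below 0. Of 10 tested, 9 were lower in TG_HFD, with a median of −0.18, and 3 were lower at a nominal p of 0.05 or less, where 2.23% of all tested genes were. *Calca*, which encodes the peptide CGRP, had 229.1, 248.2 and 306.5 normalized read counts in WT_HFD and 159.2, 193.4 and 245.9 in TG_HFD, a log2 fold change of −0.32 (SE 0.125). *Chat*, which makes acetylcholine, had −0.30 (SE 0.123). The groups overlap for *Calca* and *Chat*, and none of the 10 genes passed adjustment, with edgeR adjusted p values of 0.818 for *Calca* and 0.827 for *Chat*. Without surrogate variables the list median was −0.13 with 7 lower, and with the GC correction in their place it was 0.01. In bulk tissue, fewer cells of a type and less RNA per cell cannot be told apart, here or for any list of cell type markers.

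Neuropeptide and neurotrophin genes had a median of 0.08 over 21 tested, with 17 higher in TG_HFD. That median was 0.02 without TG_HFD replicate 1, and without surrogate variables 8 of 21 were lower. *Crh*, corticotropin-releasing hormone, had 32.1, 54.8 and 65 normalized read counts in WT_HFD and 27, 74.1 and 149.9 in TG_HFD, with a log2 fold change of 0.83 (SE 0.363). *Trh*, thyrotropin-releasing hormone of raphe neurons, had 23.6, 81.3 and 114.9 in WT_HFD and 18.6, 99.4 and 280.3 in TG_HFD, with 1.16 (SE 0.544). Both spread widely within each group, and the edgeR adjusted p values were 0.863 and 0.884. In the mean of the neuron marker list the difference lay in *Thy1*. With *Thy1* the mean log2 CPM of 11 neuron genes was higher in TG_HFD by 0.354 (two-sided exact permutation p = 0.00216, the smallest possible with 6 against 6, adjusted p = 0.0303), and without it the other 10 differed by 0.0129 (exact p = 0.576). Such a mean can hide opposite changes of single genes. Without surrogate variables 3 of the 11, *Thy1* included, were higher and 1 was lower at a nominal p of 0.05 or less. Of all tested genes, 10.4% were higher and 9.24% lower at that p. DESeq2 without surrogate variables called 1 of the 11 higher and 1 lower.

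Astrocyte genes gave different answers with and without surrogate variables, and 1 TG_HFD library stood above the rest for many glial genes. Of 21 tested astrocyte genes, 19 were higher with surrogate variables, with a median of 0.10, and *Gfap*, *C4b*, *Id3* and *Aqp4* were the 4 higher at a nominal p of 0.05 or less, where 3.37% of all tested genes were higher and 2.23% lower. *Id3*, a regulator of transcription, had 0.26 in the model with and −0.28 in that without surrogate variables, and its mean normalized read count was 171 in TG_HFD and 207.7 in WT_HFD. Of 23 tested genes of microglia and complement, 21 were higher, with a median of 0.14, and *Lpl*, *C4b* and *Axl* were higher and *Spp1* lower at that p (*Aqp4* and *Axl* are named after their values were seen). In that fit none was called, while edgeR called *Lpl* without surrogate variables and *Lpl*, *Gfap* and *C4b* with 2. *Gfap*, the filament protein that astrocytes raise when reactive, had 3149, 3903 and 4469 normalized read counts in WT_HFD and 3454, 4685 and 8437 in TG_HFD. TG_HFD replicate 8 was the highest, and replicates 3, 4 and 7 of TG_HFD lay within the range of WT_HFD. The log2 fold change was 0.55 (SE 0.16, edgeR adjusted p = 0.475), and 0.41 (adjusted p = 0.424) without TG_HFD replicate 8.

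*C4b*, a complement component made by astrocytes and microglia, had 512.8, 608.2 and 717.5 normalized read counts in WT_HFD and 564.1, 766.7 and 1894 in TG_HFD. Replicate 8 held the 1894, while the next highest TG_HFD library had 796.7. The log2 fold change was 0.59 (SE 0.21, edgeR adjusted p = 0.811) with this library and 0.34 (adjusted p = 0.148) without it. *Spp1*, osteopontin, ran the other way at −0.22 (SE 0.0722, edgeR adjusted p = 0.693), with 2209, 2747 and 3039 in WT_HFD and 2111, 2245 and 2718 in TG_HFD.

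TG_HFD replicate 8 was the highest of the 6 TG_HFD libraries for 13 of the 21 astrocyte genes, 17 of the 23 microglia and complement genes and 18 of 21 genes of the interferon response and MHC class I. Without it the medians were 0.08 for astrocytes, 0.05 for microglia and complement, and −0.09 for interferon genes, against 0.02 with it for the last list. The level of the microglia list relative to the WT_HFD mean was −0.318 in the lowest and 0.546 in the highest TG_HFD library, against −0.147 to 0.215 in WT_HFD. Without surrogate variables the astrocyte median was −0.01, with 12 of 21 genes lower, and the microglia median 0.10. Tested by library, neither the astrocyte list (difference of −0.00073 in mean log2 CPM, exact permutation p = 0.998) nor the microglia list (0.102, exact permutation p = 0.537) separated the groups.

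**Figure D5:**
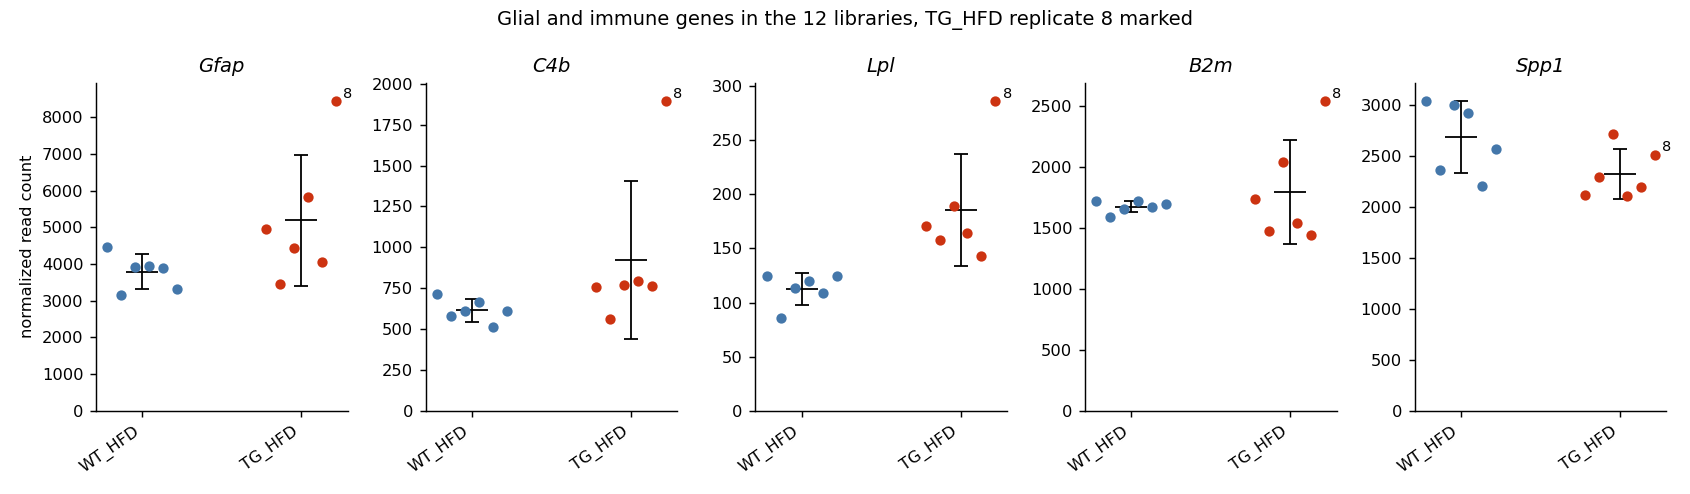
Normalized read counts of *Gfap*, *C4b*, *Lpl*, *B2m* and *Spp1* in the 6 WT_HFD and 6 TG_HFD libraries; points are libraries, bars are group means with SD, and TG_HFD replicate 8 is marked. That library is the highest for *Gfap* (8437), *C4b* (1894), *Lpl* (286.1) and *B2m* (2539) and not for *Spp1*.

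Most endothelial markers also had values below 0. Of 18 tested endothelial and barrier genes 14 were lower in TG_HFD, with a median of −0.02 that became −0.10 without WT_HFD replicate 8, and *Pecam1*, an adhesion molecule of endothelial cells, had the lowest p. It had 355.7, 377.8 and 399.4 normalized read counts in WT_HFD and 312, 328 and 432.9 in TG_HFD, a log2 difference of −0.27 (SE 0.079, edgeR adjusted p = 0.524). By library, the list was lower in TG_HFD by 0.123 in mean log2 CPM (4.91 ± 0.0516 against 5.03 ± 0.107, SD, n = 6 each, two-sided exact permutation p = 0.0281, adjusted p = 0.141). Without TMM factors, which scale the library totals, it was lower by 0.16 (exact permutation p = 0.00649, not adjusted). Without surrogate variables the list median was −0.13, with 5 lower at a nominal p of 0.05 or less, where 9.24% of all tested genes were. Pericyte and smooth muscle genes had medians of 0.02 with and −0.04 without surrogate variables over 9 tested. Hemoglobin and other erythrocyte genes had a median of 0.55 over 5 tested with surrogate variables and of 0.0078 without, with 0 at a nominal p of 0.05 or less in either fit. Oligodendrocyte and myelin genes had medians of −0.0066 and −0.04 over 22 tested. By library, that list was lower in TG_HFD by 0.104 in mean log2 CPM (exact permutation p = 0.251). Without TMM factors it was lower by 0.142 (exact permutation p = 0.0346, not adjusted).

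Lists of lipid genes, of interest because all 12 mice ate HFD, had small medians. Single values were larger, from −0.24 to 0.51 for fatty acid oxidation and PPAR target genes with surrogate variables. Cholesterol synthesis and transport genes had a median of −0.05, with 19 of 27 lower in TG_HFD and 4 lower at a nominal p of 0.05 or less, where 2.23% of all tested genes were. Without surrogate variables the median was −0.09, with 8 lower and 1 higher at that p, where 9.24% of all tested genes were lower. Of the 4, *Hsd17b7*, an enzyme late in cholesterol synthesis, had −0.18 (SE 0.0643) and *Stard4*, a sterol carrier, −0.16 (SE 0.065). *Insig1*, which holds sterol sensors in the endoplasmic reticulum and is named after its value was seen, had −0.11 (SE 0.0487). The ranges of the groups overlap for these 3, and their edgeR adjusted p values were 0.811 or more. Fatty acid oxidation and PPAR target genes had medians of −0.0024 with and −0.08 without surrogate variables over 32 tested, and 0 of them had a nominal p of 0.05 or less with surrogate variables. For genes of insulin, IGF and leptin signalling the median was 0.0041 over 27 tested. *Adipor1* (0.11) and *Pik3r1* (0.09) were higher at a nominal p of 0.05 or less, where 3.37% of all tested genes were. The groups overlap for *Adipor1*, with 887.8 to 1055 normalized read counts in WT_HFD and 894.7 to 1075 in TG_HFD.

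Protein quality control and stress genes lay near the median of all genes. The medians with surrogate variables were −0.0021 for 26 heat shock and chaperone genes, 0.05 for 16 genes of the unfolded protein response, 0.0087 for 31 proteasome subunits, 0.0045 for 38 lysosomal and −0.0016 for 28 autophagy genes. Of the lysosomal genes, the cathepsin gene *Ctsz* (0.24, SE 0.0942), the cholesterol carrier gene *Npc2* (0.09) and the mannosidase gene *Man2b1* (0.12) were higher at a nominal p of 0.05 or less. Of all tested genes, 3.37% were higher at that p in the same model. Without surrogate variables 0 lysosomal genes were higher and 7 lower at that p, where 10.4% of all tested genes were higher and 9.24% lower. Without TG_HFD replicate 8 the model with surrogate variables had 1 lysosomal gene higher, and 471 of all tested genes. The groups overlap for *Npc2*, with 1254 to 1532 normalized read counts in WT_HFD and 1251 to 1512 in TG_HFD. Of the autophagy genes, *Pik3r4* (−0.19, SE 0.0599), *Atg5* (−0.19, SE 0.0755) and *Rb1cc1* (−0.12) were lower at that p in the model with surrogate variables, where 2.23% of all tested genes were. None passed adjustment. The normalized read counts of *Rb1cc1* ran from 1064 to 1307 in WT_HFD and from 1102 to 1471 in TG_HFD, so the counts themselves were not lower. Glucocorticoid receptor targets had a median of 0.04, with 16 of 19 higher and *Ddit4* (0.21, SE 0.0991) alone at a nominal p of 0.05 or less. The TG_HFD counts of *Ddit4* (217 to 240.1) lay within the range of WT_HFD (174.2 to 288.9). Of 14 tested immediate early genes, *Fosl2* was lower at that p (−0.41, SE 0.151, edgeR adjusted p = 0.817), and the list median was −0.03.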

How the data were processed

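RNA of 500 ng per mouse was made into poly(A) libraries and sequenced with reads of 75 bases. Per the labels the tools of the authors were FastQC 0.11.9, STAR 2.7.9a and DESeq2 1.32.0, and the study aligned reads to the mouse genome with the transgene added. The authors deposited raw counts per gene. How reads were assigned to genes, and whether by strand, is not given in the sources used here. From these counts, genes averaging 50 counts or more across the 23 brainstem libraries were fitted with edgeR 4.0.16 (TMM factors, quasi-likelihood test, R 4.3.3) in 1 model of the 4 brainstem groups with 4 surrogate variables from sva 3.50.0 (number chosen with 20 permutations), and p-values were adjusted by Benjamini-Hochberg over all tested genes. The model left 15 residual degrees of freedom and a median SE of 0.0829 on the log2 scale. Normalized read counts are counts divided by library total and TMM factor and multiplied by the mean library size. Total counts ranged from 10606953 to 15078812, which sets the counting error. Exact permutation tests, two-sided, were used for library measures. Groups and replicate numbers came from the labels, and pairwise comparison found no library deposited more than once. The steps were tested on simulated data, in which genes varied independently and without a GC trend. Such data do not test how surrogate variables act on variation shared by many genes.

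Sequences and GC content came from GENCODE M21 (GRCm38), another build than that of the counts, so no coordinates are given, and 99.8% of tested genes had a GC content. The members and gene lists were chosen with earlier results of these data known. Genes were named by a rule that took the cassette genes, every DEG, the 10 largest log2 fold changes in each direction among genes without overlap, up to 3 members of the lowest p and the member of the highest count in each list, a list of genes the study discusses, and every gene called for the interaction. The transgene and a few other genes that the rule took are not reported here. Alternatives were other numbers of surrogate variables, DESeq2 1.42.0, RLE size factors, other filters, a GC correction, the 12 libraries alone, a replicate block, no fold threshold, and each library left out in turn. Marker list levels by library were also taken without TMM factors. DESeq2 with 1 or 2 surrogate variables, 0 surrogate variables without TG_HFD replicate 3, and neuron markers without *Thy1* were added after seeing the data. Figures were drawn with matplotlib 3.10.9.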

Additional observations from a re-analysis of the deposited data

Results flagged for a closer look

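In each of 72 groups of 6 values, the highest or lowest library was examined for its gap to the nearest of the others as a share of the group's range, against Dixon's 95% critical value. This marked 5 groups, and chance marks about 1 in 20. In WT_HFD, replicate 1 was the highest for *Gm15446*, with a gap of 0.66 of the range, and for *Gabra2*, with 0.657. In TG_HFD, replicate 8 was the highest for *Lpl*, with 0.681, and for *C4b*, with 0.825. TG_HFD replicate 3 had the lowest mean log2 CPM of myelin and oligodendrocyte genes, with 0.855. The genotype difference of *Zfp382* differed between the diets, with an interaction of −1.36 on the log2 scale. The HFD value of *Zfp382* depended on single libraries, since it was −0.70 without TG_HFD replicate 1 and −0.12 without WT_HFD replicate 8.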

How the results depend on the processing

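The 7 DEGs became 25 with 2 surrogate variables (11 higher), 87 by DESeq2 without surrogate variables (23 higher), 100 and 26 by DESeq2 with 1 and 2 surrogate variables, 12 without the fold threshold, 4 with the 12 libraries alone and no surrogate variables, and 4 without surrogate variables and without TG_HFD replicate 3. Under the other settings without a left-out library or a block the count was between 5 and 10. Leaving out single libraries gave 3 to 12 DEGs. The count moved by over 1.5 times without TG_HFD replicate 1 (4), 6 (11) or 7 (12) and without WT_HFD replicate 4 (11) or 8 (3). Over 19 other settings, *Thy1* was called in 19, *Gm15446* in 18, *Gabra2* in 15, *Zfp932* in 11, *Gm10095* in 7 and *Gm14648* in 3. Why the counts moved was not tested. Replicate numbers were not treated as pairs in the main model. Of 5 same-numbered pairs, 1 deviated together with r above 0.1 (range −0.223 to 0.25). So few pairs cannot settle whether the numbers mark litters or batches, which the labels do not say. With the replicate block, 3 DEGs were called with the same surrogate variables and 6 without. The interaction call of *Zfp382* became 0 genes with 0, 1, 2 or 3 surrogate variables, by DESeq2 without surrogate variables, with edgeR's own filter, with the GC correction alone, with either replicate block, and without surrogate variables and TG_HFD replicate 3. DESeq2 with 2 surrogate variables called 19 genes for it, and single libraries left out gave 0 to 2 (0 without TG_HFD replicate 3, 4 or 7 or WT_HFD replicate 1, 2, 3, 7 or 8, and 2 without TG_HFD replicate 6 or 8). The number of genes without overlap was 91 with RLE size factors too. Of the remaining values, 5966 kept their direction and their side of the threshold or moved little, 1355 moved, 53 passed and 58 no longer passed a threshold, and none reversed a called direction. With 6 mice a group and a median SE of 0.0829, small changes were not detectable.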
